A study of Mus musculus with 8 samples.

Results

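Macroautophagy encloses cytoplasm, damaged organelles and protein aggregates in a double-membraned vesicle, the autophagosome, and delivers them to the lysosome. A kinase complex starts the process, a lipid kinase complex marks the site on the endoplasmic reticulum, lipid transfer proteins and scramblases extend the membrane, and ubiquitin-like conjugation attaches proteins of the ATG8 family to it, which cargo receptors then bind. In microglia, the resident macrophages of the brain, part of this machinery also serves LC3-associated phagocytosis, and both routes are known to handle extracellular and intracellular aggregates. The genes described here are 38 named components of this machinery, chosen by symbol, out of 56832 rows of the deposited expression table. All 38 were found in it, and all 38 averaged 10 or more normalized counts over the 8 libraries, the level above which genes were tested.

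The libraries came from microglia isolated by fluorescence-activated sorting from brains of young adult male 5xFAD mice, a line that carries mutant human amyloid precursor and presenilin transgenes under the neuronal Thy1 promoter and deposits amyloid. The ethanol group (4 libraries) received ethanol intraperitoneally at 3 g/kg as a 20% solution on 5 days a week for 4 weeks, followed by 2 weeks of withdrawal. The saline group (4 libraries) received saline on the same schedule, and both groups carried the transgenes, so the comparison asks whether past ethanol exposure altered microglial transcripts in an amyloid-depositing brain. The libraries are numbered 1 to 4 in each group, and nothing in the labels ties a library to a single mouse. The p-values therefore measure only how far these libraries differed, which may be partly technical.

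Libraries held 14271351 to 17231301 gene-assigned reads. The 11 microglia markers made up 5.08 to 5.32% of the normalized counts in ethanol libraries and 4.84 to 5.13% in saline libraries. Markers of other cells were scarce. The highest of their sums were 0.0658% for 9 neutrophil markers in an ethanol library and 0.0934% in a saline library, and 0.0587% and 0.0553% for 7 astrocyte markers. The 9 lymphocyte markers summed to 0.00371 to 0.00659% in ethanol libraries and 0.00414 to 0.00662% in saline libraries. Of these, the B cell receptor gene Cd79b was present in every library, at 563 to 1033 normalized counts in ethanol and 653 to 1020 in saline, whereas the T cell genes Cd3e and Cd3d and the B cell gene Ms4a1 were at 0 in all 8 libraries. What part these transcripts had in the results was not tested. In bulk samples, fewer cells of a type and less RNA per cell cannot be told apart.

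Every step of the autophagy pathway was transcribed in these microglia, with levels per kilobase that spanned from Gabarap at the top to Optn at the bottom. Levels are compared here as the mean of the 8 libraries in normalized counts per kilobase of exon, since longer transcripts collect more reads. Gabarap, which encodes an ATG8 protein, had 2430 per kilobase, at percentile 97.7 of all tested genes with a known length. Its lowest library, at 2257 per kilobase, lay above the highest library of the next gene, Tax1bp1, at 1070 per kilobase. Tax1bp1, a receptor for ubiquitinated cargo, averaged 983 per kilobase.

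From Tax1bp1 down to Map1lc3b, each of 8 genes overlapped its neighbour in the order over the range of the libraries, so the order of neighbours is not resolved. Genes farther apart in it did separate, since the lowest library of Tax1bp1, at 833.1 per kilobase, lay above the highest of Vmp1, at 778, of Atg101, at 799, and of Map1lc3b, at 719. These genes were Tax1bp1, Map1lc3a, Atg3, Gabarapl2, Sqstm1, Vmp1, Atg101 and Map1lc3b, and their means ran from 983 to 654 per kilobase. Map1lc3b stood at rank 9 by exon length and at rank 2, with 1287 per kilobase, when its longest coding transcript was used as the length, so its place depends on the length chosen. Atg5 followed at 480 per kilobase, and neighbours overlapped again from there to the end of the order.

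The lowest levels belonged to the lipid transfer gene Atg2b at 68.8 per kilobase, the phosphoinositide-binding gene Wipi1 at 40.6 and the receptor gene Optn at 24.9. Wipi1 and Optn lay at percentiles 30.3 and 22.8 of the tested genes. Within a complex, subunit levels were not equal. In the kinase complex Atg101 had 699 per kilobase, Ulk2 463, Atg13 223, Rb1cc1 191 and Ulk1 152. Ulk2 therefore exceeded its paralogue Ulk1 in level per kilobase, with a lowest library of 398 against a highest library of 171 for Ulk1. In the lipid kinase complexes the means of the 7 genes lay closer together, between 176 per kilobase for Pik3c3 and 264 for Uvrag.

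**Figure D1:**
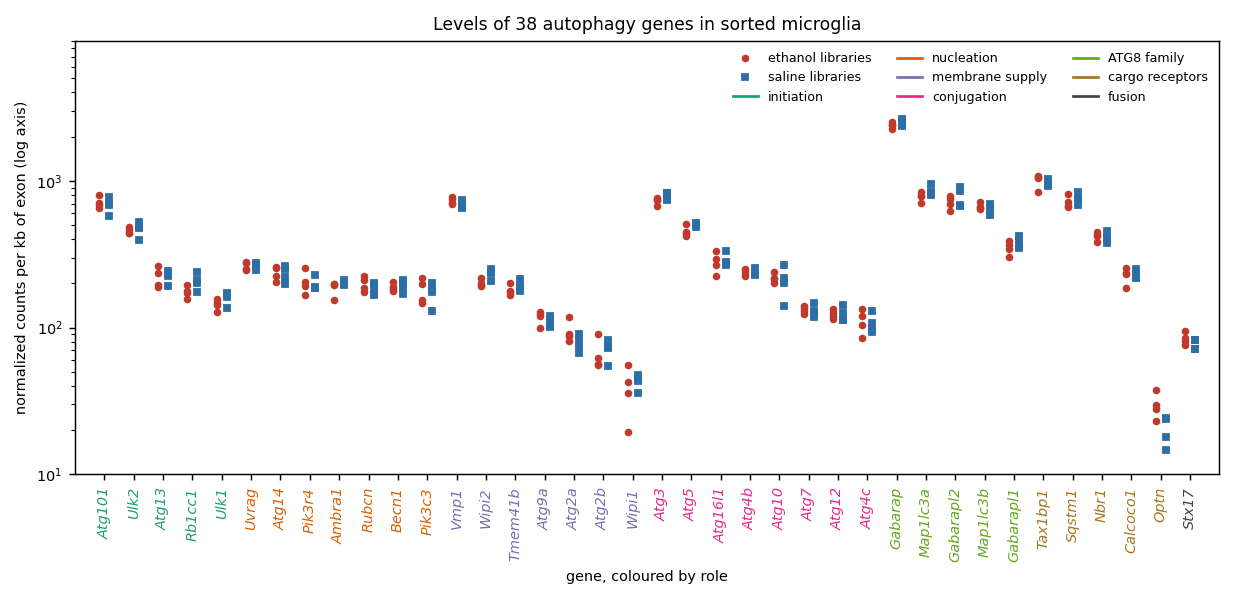
Normalized counts per kilobase of exon (log axis) for the 38 autophagy genes, ordered by role and then by mean, with ethanol libraries as red circles left of saline libraries as blue squares. Gabarap stands above the other genes at a mean of 2430 per kilobase, Optn is lowest at 24.9, and for each gene the groups overlap.

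None of the 38 autophagy genes differed between ethanol and saline microglia by the threshold used. With limma, 0 of 38 had a Benjamini-Hochberg adjusted p under 0.05, where the background was 0% of 14428 tested genes, and the smallest adjusted p among the 38 was 0.997. edgeR and DESeq2 on recovered reads also called 0 of 38. At an unadjusted p under 0.05 there were 2 of 38 genes (5.26%) in each of limma, edgeR and DESeq2. The background was 3.63% of the 14428 tested genes in limma and 3.43% in edgeR. In DESeq2 it was 2.9% of 26782 genes, a wider set, since that fit took every gene with any read. The limma genes, Rb1cc1 and Wipi2, had negative fold changes, so 0 of 38 lay on the higher side (background 1.7%) and 2 of 38 on the lower side (background 1.93%). Leaving out 1 library reduced this count to 1 or 0 in each case, with 0 of 38 without ethanol 1, ethanol 3, saline 2 or saline 4. The matching shares over all tested genes were not computed. For 0 of 38 genes did the 4 ethanol values lie wholly above or below the 4 saline values, where the background was 2.32% of tested genes (1.12% higher and 1.2% lower).

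Fold changes were small and split evenly in sign. Of the 38 genes, 18 had a positive and 20 a negative log2 fold change, with a median of -0.0058, beside a median of -0.0054 over all tested genes. The fold lay between 0.8 and 1.25 for 37 of 38 genes, the exception being Optn. The 95% interval of the fold stayed inside 1.5-fold in both directions for 36 of 38 genes (94.7%), against 56.3% of all tested genes, and inside 1.25-fold for 19 of 38. The 38 genes were also more highly expressed than most, with a median of 899 normalized counts against 325 over all tested genes, and abundant genes have narrower intervals. The genes whose intervals reached past 1.5-fold were Optn and Wipi1, which had the lowest counts.

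**Figure D2:**
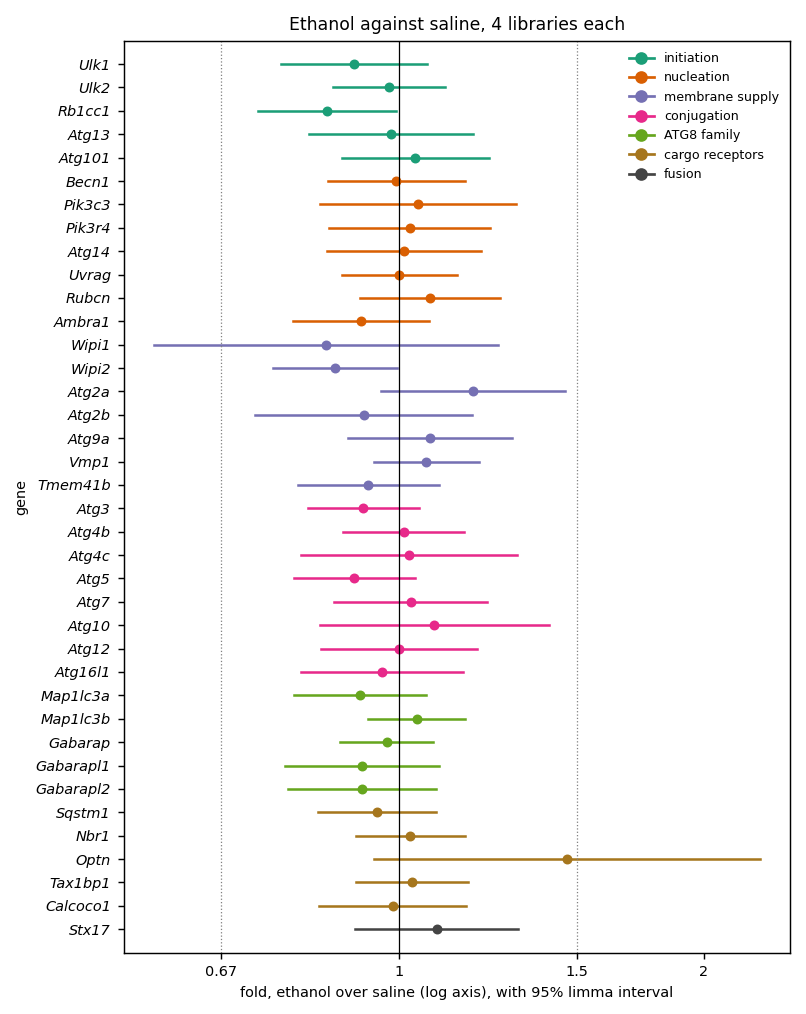
Fold of ethanol over saline (log axis) with its 95% limma interval for each of the 38 genes, coloured by role. Dotted lines mark a 1.5-fold difference in either direction, and 36 of 38 intervals lie between them, while those of Wipi1 and Optn do not.

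The initiation genes encode the ULK kinase complex, and 0 of 5 passed the test, with 1 positive and 4 negative fold changes and a median log2 fold change of -0.03. Rb1cc1, which encodes the scaffold FIP200, had 1342, 1496, 1305 and 1183 normalized counts in ethanol libraries 1 to 4, against 1811, 1617, 1330 and 1529 in saline libraries 1 to 4. Ethanol 3 and 4 lay below all saline libraries, and ethanol 1 and 2 lay within the saline range. The fold was 0.849 with a 95% interval of 0.726 to 0.993 (limma unadjusted p = 0.042, adjusted p = 0.997). Leaving out 1 library at a time gave log2 fold changes from -0.31 to -0.16.

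An uncharacterised gene, 4732440D04Rik, overlaps Rb1cc1 in the RefSeq annotation. It had 276, 265, 248 and 211 normalized counts in ethanol libraries and 166, 177, 226 and 373 in saline libraries. The library chemistry does not mark strand, so reads of the overlapping stretch cannot be told apart, and the part of this gene in the Rb1cc1 values was not tested. Ulk1, a kinase that starts autophagy under control of AMPK and mTORC1, had 741, 772, 672 and 822 normalized counts in ethanol libraries and 709, 896, 889 and 845 in saline libraries. The groups overlapped because saline 1 was lower than all ethanol libraries but ethanol 3, and the fold was 0.902 (0.764 to 1.07; limma adjusted p = 0.997). Ulk2, the related kinase, had a fold of 0.977, and the adaptor genes Atg13 and Atg101 had folds of 0.982 and 1.04.

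The nucleation genes encode the class III phosphatidylinositol 3-kinase complexes, and 0 of 7 passed, with 5 positive and 2 negative fold changes and a median log2 fold change of 0.02. Becn1, the scaffold subunit Beclin 1, had 892, 971, 832 and 868 normalized counts in ethanol libraries and 952, 989, 858 and 796 in saline libraries. Both the highest and the lowest Becn1 value belonged to saline libraries. The fold was 0.993 (0.850 to 1.16; limma adjusted p = 0.997). Pik3c3, the catalytic subunit VPS34, had 680, 873, 651 and 950 normalized counts in ethanol libraries and 889, 805, 762 and 566 in saline libraries. Its libraries scattered widely in both groups, with a coefficient of variation of 18.5% in ethanol and 18.1% in saline, and the fold was 1.04 (0.835 to 1.31; limma adjusted p = 0.997).

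Atg14, which directs the complex to the forming autophagosome, had a fold of 1.01 and Uvrag, which directs it to endosomes, a fold of 1.00. The folds of the regulatory subunit gene Pik3r4 and of Ambra1, which encodes a Beclin 1-binding scaffold, were 1.02 and 0.917. Rubcn, whose product Rubicon restrains autophagosome maturation and is needed for LC3-associated phagocytosis, had 1238, 1324, 1027 and 1091 normalized counts in ethanol libraries and 1165, 1178, 973 and 1037 in saline libraries. The groups overlapped, and the fold was 1.07 (0.916 to 1.26).

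The genes for membrane supply comprise readers of phosphatidylinositol 3-phosphate, lipid transfer proteins and scramblases, and 0 of 7 passed, with 3 positive and 4 negative fold changes and a median log2 fold change of -0.10. Wipi2, a lipid reader that recruits ATG16L1 to the membrane, had 1046, 1003, 994 and 1127 normalized counts in ethanol libraries, against 1079, 1306, 1220 and 1229 in saline libraries. Ethanol 1 to 3 lay below the lowest saline library, and ethanol 4 lay above it and below the other saline libraries. The fold was 0.864 (0.750 to 0.995; limma unadjusted p = 0.0433, adjusted p = 0.997). Leaving out 1 library at a time gave log2 fold changes from -0.26 to -0.17.

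Atg2a, which moves lipids from the endoplasmic reticulum into the growing membrane, had 513, 572, 556 and 751 normalized counts in ethanol libraries and 532, 430, 575 and 474 in saline libraries. Ethanol 4 alone lay above the highest saline library. The fold was 1.18 (0.960 to 1.46; limma adjusted p = 0.997), while its paralogue Atg2b had a fold of 0.922 (0.720 to 1.18). Atg9a, a scramblase of the seed vesicles, had 525, 543, 439 and 564 normalized counts in ethanol libraries and 441, 529, 500 and 457 in saline libraries, with a fold of 1.07 (0.889 to 1.29; limma adjusted p = 0.997). The ethanol values of Atg9a enclosed the whole saline range. Vmp1, a scramblase of the endoplasmic reticulum, had 1924, 2087, 1975 and 2168 normalized counts in ethanol libraries and 1852, 2064, 1934 and 1815 in saline libraries. Only ethanol 2 and 4 lay above all saline libraries, and the fold was 1.06 with a lower limit of 0.944 (limma adjusted p = 0.997). Its partner gene Tmem41b had a fold of 0.932.

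Wipi1, the paralogue of Wipi2, varied most of the 38 genes, with a coefficient of variation within groups of 27.9%. It had 82.6, 183, 239 and 153 normalized counts in ethanol libraries and 184, 187, 154 and 204 in saline libraries. Both the lowest and the highest Wipi1 value were in ethanol libraries, ethanol 1 and ethanol 3, and the fold of 0.847 had an interval of 0.572 to 1.25.

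The conjugation genes carry ATG8 and ATG12 proteins to their targets, and 0 of 8 passed, with 4 positive and 4 negative fold changes and a median log2 fold change of 0.0063. Atg5, part of the complex that attaches ATG8 proteins to lipid, had 994, 1040, 1058 and 1195 normalized counts in ethanol libraries and 1136, 1209, 1188 and 1204 in saline libraries. Ethanol 1 to 3 lay below all saline libraries and ethanol 4 lay among them, and the fold was 0.903 (0.787 to 1.04; limma adjusted p = 0.997). Atg16l1, which places that complex on the membrane, had 1059, 845, 718 and 926 normalized counts in ethanol libraries and 884, 1064, 844 and 877 in saline libraries, a fold of 0.962 with an upper limit of 1.16 (limma adjusted p = 0.997). Atg12, the ubiquitin-like partner of ATG5, had a fold of 0.999. The 3 genes of this complex therefore had folds between 0.903 and 0.999, none of which passed.

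Atg7, the activating enzyme shared by both conjugation routes and by LC3-associated phagocytosis, had 575, 532, 559 and 508 normalized counts in ethanol libraries and 484, 528, 512 and 597 in saline libraries. The ethanol values lay inside the saline range, and the fold was 1.03 (0.863 to 1.22; limma adjusted p = 0.997). Atg3, the enzyme that transfers ATG8 proteins to lipid, had 1521, 1570, 1383 and 1515 normalized counts in ethanol libraries and 1547, 1710, 1713 and 1528 in saline libraries. Of the ethanol libraries only ethanol 2 lay inside the saline range, the others falling below it, and the fold was 0.922 (0.812 to 1.05; limma adjusted p = 0.997). Atg10, the transfer enzyme for ATG12, had a fold of 1.08 (0.834 to 1.41), and the protease genes Atg4b and Atg4c, whose products trim and recycle ATG8 proteins, had folds of 1.01 and 1.02.

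The ATG8 family genes encode the ubiquitin-like proteins that coat the autophagosome, and 0 of 5 passed, with 1 positive and 4 negative fold changes and a median log2 fold change of -0.12. Map1lc3b, which encodes LC3B, the protein most used to follow autophagosomes, had 3427, 3362, 3307 and 3724 normalized counts in ethanol libraries and 3039, 3280, 3594 and 3376 in saline libraries. The groups overlapped, and the fold was 1.04 (0.931 to 1.16; limma adjusted p = 0.997). Map1lc3a, which encodes LC3A, had 790, 870, 878 and 937 normalized counts in ethanol libraries and 938, 890, 1054 and 920 in saline libraries. Ethanol 1, 2 and 3 lay below all saline libraries, and the fold was 0.915 (0.787 to 1.06; limma adjusted p = 0.997).

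Gabarap had 3257, 3049, 3248 and 3393 normalized counts in ethanol libraries and 3324, 3220, 3569 and 3203 in saline libraries, a fold of 0.972 (0.875 to 1.08). It varied least of the 38 genes, with a coefficient of variation within groups of 4.75%. Gabarapl1 had 670, 623, 555 and 710 normalized counts in ethanol libraries and 720, 657, 772 and 631 in saline libraries, a fold of 0.919 (0.772 to 1.09). Gabarapl2 had 1174, 1039, 1266 and 1317 normalized counts in ethanol libraries and 1156, 1137, 1522 and 1425 in saline libraries, a fold of 0.919 (0.776 to 1.09). In these genes too the groups overlapped, and the limma adjusted p was 0.997 for each. Per kilobase of exon, Gabarap made up 48.8 ± 0.793% of the family in ethanol and 48.1 ± 1.31% in saline (SD, n = 4 each). Map1lc3b made up 13.6 ± 0.382% in ethanol and 12.5 ± 0.572% in saline, and it was the 1 of 5 shares whose groups lay apart, by the narrow gap between a lowest ethanol value of 13.05% and a highest saline value of 13.04%. The sizes of these shares depend on the length chosen. Map1lc3b had 654 per kilobase by exon length and 1287 by its longest coding transcript, while the other family genes had the same level by either length. By coding length the share of Map1lc3b would thus be larger and that of Gabarap smaller. The shares rest on the same counts as the ratios that follow and were not tested, and 1 of 5 has no background from other genes beside it.

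The ratio of Map1lc3a to Map1lc3b was the only one of the 10 count ratios within the family whose groups did not overlap. It was 0.230, 0.259, 0.266 and 0.252 in ethanol libraries 1 to 4, against 0.308, 0.271, 0.293 and 0.273 in saline libraries 1 to 4. The mean was 0.252 ± 0.0152 in ethanol and 0.286 ± 0.0179 in saline (SD, n = 4 each), a fold of the ratio of 0.879. Exact permutation of the group labels (two-sided, 70 arrangements) gave p = 0.0286, the smallest value the design allows, and the Benjamini-Hochberg adjusted p over the 10 ratios was 0.286. With 10 ratios, of which 1 had groups apart, an adjusted p under 0.05 could not be reached whatever the size of the difference, so the adjusted value says nothing for or against it. These ratios were examined after the gene values had been seen. They draw on the same 5 genes, so they are not independent. The share of ratios of other gene pairs with groups apart was not computed, so 1 of 10 has no background beside it. Of single tested genes, 2.32% had groups that did not overlap. Map1lc3b overlaps Zcchc14 in the RefSeq annotation, and Zcchc14 had 592, 620, 572 and 564 normalized counts in ethanol libraries and 592, 503, 524 and 472 in saline libraries. The part of shared reads in the ratio was not tested.

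**Figure D3:**
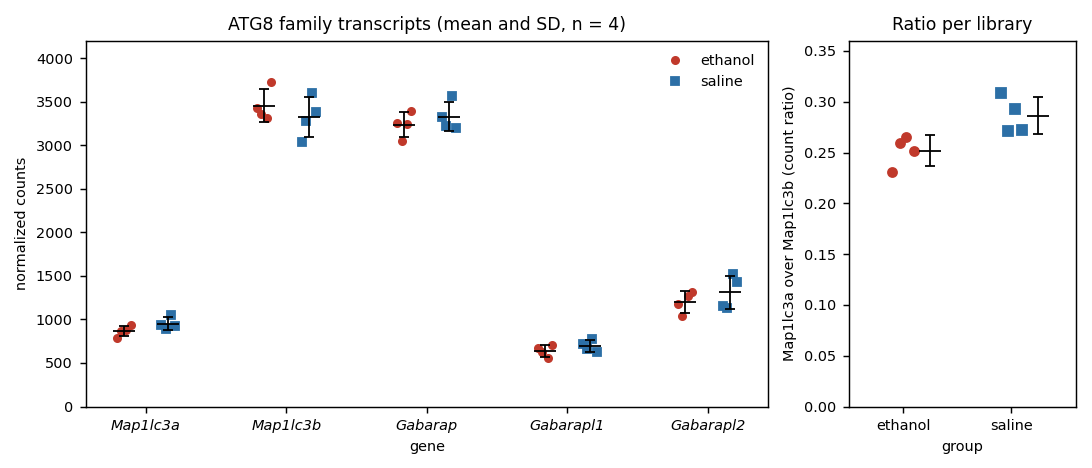
Left, normalized counts of the 5 ATG8 family genes with mean and SD; right, the count ratio of Map1lc3a to Map1lc3b in each library, with ethanol in red left of saline in blue. Single genes overlap between the groups, while the 4 ethanol ratios, up to 0.266, lie below the 4 saline ratios, from 0.271.

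The cargo receptor genes link ubiquitinated cargo to ATG8 proteins, and 0 of 5 passed, with 3 positive and 2 negative fold changes and a median log2 fold change of 0.04. Optn, which encodes optineurin, a receptor for damaged mitochondria and bacteria, had 78.2, 60.2, 98.3 and 73.1 normalized counts in ethanol libraries and 47.2, 62.7, 63.2 and 38.2 in saline libraries. Ethanol 1, 3 and 4 lay above all saline libraries and ethanol 2 lay inside the saline range. The fold of 1.47 was the highest of the 38 genes, with an interval of 0.945 to 2.27 (limma unadjusted p = 0.0836, adjusted p = 0.997), and these low counts leave room for a 2-fold difference.

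Sqstm1, which encodes p62, a receptor that is itself degraded by autophagy, had 1868, 1900, 2032 and 2301 normalized counts in ethanol libraries and 2109, 2123, 1920 and 2355 in saline libraries. The groups overlapped over most of their range, and the fold was 0.951 (0.832 to 1.09; limma adjusted p = 0.997). Nbr1, a receptor related to p62, and Tax1bp1 had folds of 1.03 (0.905 to 1.16) and 1.03 (0.907 to 1.17). Calcoco1, a receptor for the endoplasmic reticulum, had a fold of 0.985 (0.834 to 1.16). Stx17, the SNARE that joins the finished autophagosome to the lysosome, had 496, 552, 471 and 447 normalized counts in ethanol libraries and 484, 483, 419 and 420 in saline libraries. Ethanol 1 and 2 lay above all saline libraries, and the fold was 1.09 (0.904 to 1.31; limma adjusted p = 0.997).

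Variation between libraries was larger than the difference between the groups. By the mean over the 38 genes, ethanol 3 and ethanol 4 stood at its ends. The mean log2 deviation of the 38 genes from their own means was -0.0144, 0.0184, -0.0863 and 0.0633 in ethanol libraries 1 to 4, against -0.0090, 0.0524, 0.0218 and -0.0461 in saline libraries 1 to 4. Ethanol 3 held the lowest value for 12 of 38 genes and lay above the gene's mean for 9, whereas ethanol 4 lay above it for 27 and saline 2 for 25. Saline 4 held the lowest value for 9 genes. The highest value lay in saline 2 for 10 genes and in ethanol 4 for 8. By the median deviation saline 2 was highest, at 0.0663 against 0.0555 in ethanol 4. Over all tested genes the mean deviation had the opposite sign, at 0.0562 in ethanol 3 and -0.0385 in ethanol 4. In ethanol 3 and ethanol 4 the number of genes with any read also ran opposite to the autophagy values. It was 20403 in ethanol 3 and 19329 in ethanol 4, the highest and the lowest of the 8 libraries. It did not run opposite among saline libraries 1 to 4, with 19941, 20078, 20160 and 19694. Saline 4 had the lowest number of these and also the lowest mean deviation of the saline libraries, at -0.0461. The part of this measure of detection in the autophagy values was not tested. Without ethanol 3 the signs changed to 23 positive and 15 negative, and without ethanol 4 to 13 positive and 25 negative, with 0 of 38 genes called in each case.

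By role, ethanol 3 was lowest for the initiation genes, at a mean log2 deviation of -0.15, and for the nucleation genes, at -0.19. The nucleation genes were highest in ethanol 4, at 0.12. The ATG8 family was highest in saline 3, at 0.19, and lowest in ethanol 2, at -0.11. The cargo receptors were highest in ethanol 4 at 0.12 and lowest in saline 4 at -0.14. The median coefficient of variation within groups was 9.54% over the 38 genes, against 17.2% over all tested genes, whose levels are lower. The variance within groups was a median of 9.38 times the variance that counting reads alone would give, and this ratio was 8.82 over all tested genes.

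**Figure D4:**
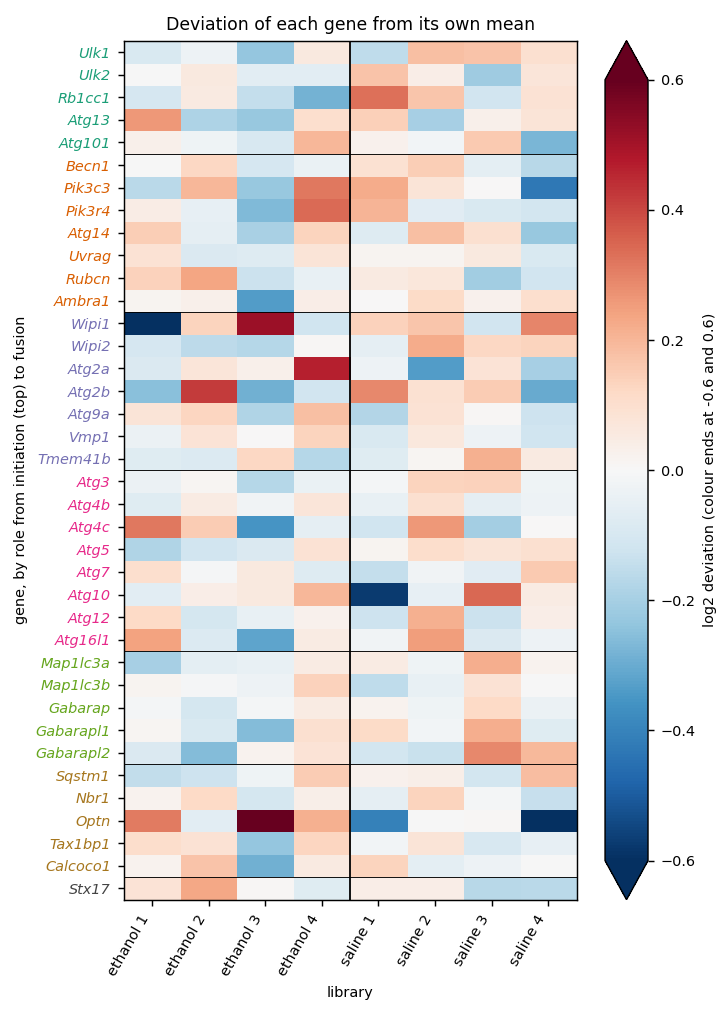
Log2 deviation of each of the 38 genes (rows, by role) from its own mean in each library (columns, ethanol left of saline). Ethanol 3 shows mostly lower values, with 12 of the 38 row minima, ethanol 4 mostly higher ones, and no role separates the groups.

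Across the 8 libraries the autophagy genes co-varied weakly. Of the 703 pairs, 62.3% had a positive Pearson r on the log2 scale, with a median of 0.14, beside 49.8% and a median of -0.0025 over all pairs of tested genes. An r of at least 0.7 was found in 42 pairs (5.97%), against 3.19% of all pairs. Without ethanol 3 the median over the 703 pairs was 0.053, so much of the shared movement rested on that library. In an exact permutation test of r over all pairings of the libraries, 54 of 703 pairs (7.68%) had an unadjusted two-sided p under 0.05. Chance alone gives a share of about 0.05, and the pairs share genes. The same share over all pairs of tested genes was not computed. After Benjamini-Hochberg adjustment 0 pairs passed for either Pearson r or Spearman rho.

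The highest r joined Rubcn and Stx17 (Pearson r = 0.91, Spearman rho = 0.90), Ulk1 and Wipi2 (0.88 and 0.88), and Atg10 and Map1lc3b (0.88 and 0.67). Their exact permutation p-values for r were 0.00226, 0.00627 and 0.00774, each with an adjusted p of 0.494. Without the 2 libraries farthest from the median of the first-named gene, r was 0.76, 0.79 and 0.75. The lowest r joined Gabarapl2 with Stx17 (r = -0.96, rho = -0.90), Rubcn with Gabarapl2 (r = -0.92, rho = -0.86) and Pik3c3 with Atg7 (r = -0.88, rho = -0.86). Their exact permutation p-values for r were 0.000248, 0.00156 and 0.00484, with adjusted p of 0.174, 0.494 and 0.494. With the 2 libraries chosen in the same way removed, r was -0.94, -0.80 and -0.79. In libraries where Stx17 and Rubcn were high, Gabarapl2 was thus low, and subtracting the group means left r at -0.96 between Gabarapl2 and Stx17.

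Pairs of 1 role had a median r of 0.24 over 100 pairs, and pairs of different roles 0.12 over 603 pairs. The ATG8 family had the highest median, 0.55, with 10 of 10 pairs positive. That median was 0.30 without saline 3, the library in which the family was highest. The nucleation genes had a median of 0.41, with 20 of 21 pairs positive, and 0.095 without ethanol 3. Within the conjugation complex Atg12 and Atg16l1 had r = 0.74 (exact permutation, unadjusted p = 0.0376), which did not pass after adjustment over all 703 pairs. Without the 2 farthest libraries r was 0.20 for this pair. Atg5 had r = 0.11 with Atg12 and 0.10 with Atg16l1. The ULK complex genes and the cargo receptors had medians near 0, at -0.03 and -0.0061.

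**Figure D5:**
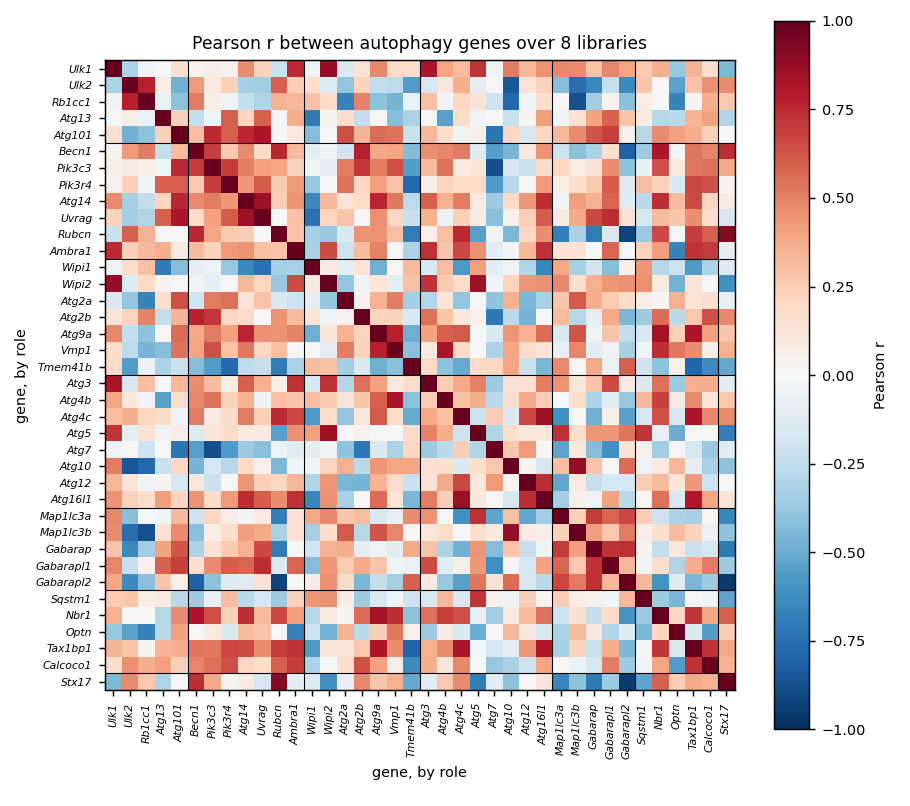
Pearson r between each pair of the 38 genes over the 8 libraries, with genes ordered by role and black lines between roles. The ATG8 block is positive throughout (median 0.55), the nucleation block nearly so (median 0.41), and the strongest negative value is that of Gabarapl2 with Stx17 (r = -0.96).

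None of the genes in lists that control or complete autophagy passed the test. Of 98 further genes in 6 lists, 96 were tested and 0 passed in limma or in edgeR, with 42 positive and 54 negative fold changes and a median log2 fold change of -0.02. At an unadjusted limma p under 0.05 there were 0 higher and 2 lower genes, 2.08% of the 96. The background was 3.63% of all tested genes (1.7% higher and 1.93% lower), so this share was not above it. The lower genes were Tecpr2, which encodes an ATG8-binding protein of secretory and autophagic traffic, and Fnip2, a folliculin partner that acts upstream of mTORC1. Tecpr2 had 267, 242, 227 and 193 normalized counts in ethanol libraries and 311, 293, 308 and 321 in saline libraries, so that all ethanol libraries lay below all saline libraries. Its fold was 0.750 (0.597 to 0.942; limma unadjusted p = 0.0166, adjusted p = 0.997).

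Fnip2 had 694, 795, 751 and 862 normalized counts in ethanol libraries and 1225, 994, 817 and 907 in saline libraries, a fold of 0.794 (0.659 to 0.955; limma unadjusted p = 0.0177, adjusted p = 0.997). The groups of Fnip2 overlapped, since ethanol 4 exceeded saline 3. Slc38a9, the lysosomal amino acid sensor of mTORC1, was named after its values were seen because it and Tecpr2 were the 2 of 96 genes whose groups did not overlap, where 2.32% of all tested genes did not. Its fold was 0.891 (0.781 to 1.02; limma adjusted p = 0.997). On the higher side the smallest unadjusted p belonged to Irgm1, an interferon-induced GTPase, with a fold of 1.17 (0.996 to 1.38), and to Tbc1d7, a subunit of the TSC complex, with a fold of 1.33 (0.954 to 1.85), both at a limma adjusted p of 0.997.

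By list, 0 of 28 tested genes of mTORC1, AMPK and lysosomal nutrient sensing passed, with a median log2 fold change of -0.05. The counts were 0 of 13 for transcriptional regulators (median -0.01), 0 of 13 for other core autophagy genes (-0.03) and 0 of 20 for selective receptors and their kinases (-0.0042). They were 0 of 14 for autophagosome-lysosome fusion (-0.02) and 0 of 8 for LC3-associated phagocytosis (0.0095). Tfeb, the transcription factor best known for inducing autophagy and lysosomal genes, averaged 912 ± 78.2 normalized counts in ethanol and 919 ± 64.6 in saline (SD, n = 4 each), a fold of 0.992 (0.851 to 1.16). Its relatives Tfe3 and Mitf had folds of 1.09 (0.982 to 1.21) and 0.992 (0.834 to 1.18), each at a limma adjusted p of 0.997.

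TFEB and its relatives bind the CLEAR element, whose core is the E-box CACGTG, and the promoters of the 38 genes were searched for it to show where this control could act. Promoter windows, from 250 bases before to 50 bases after each start, were taken from RefSeq (GRCm38.p6) and matched 32 of the 38 genes by symbol. CACGTG, which reads the same on both strands, occurred in the windows of 5 of these 32 genes (15.6%), Atg14, Rubcn, Atg3, Atg5 and Atg7, and in those of 8.09% of all 27025 genes in the table. The longer palindrome TCACGTGA, which contains CACGTG, was in 1 of 32 (Atg3) against 1.12% of all genes. The cAMP response element TGACGTCA was in 1 of 32 (Atg5) against 2.03%, and the forkhead site GTAAACA, read on both strands, in 0 of 32 against 4.05%. Further motifs searched on both strands were GTCACGTG (3 of 32 genes, against 2.55% of all genes) and TCACGTG (4 of 32, 4.29%), which both contain the E-box core. The others were CCAAT (8 of 32, 41.1%), TGACTCAG (0 of 32, 2.23%), TGACGCAA (0 of 32, 0.562%) and TTCCGG (8 of 32, 16.7%). CACGTG is shown because TFEB is known to bind it, and it was picked from these 10 motifs with their matches known. A match describes letters in a window and does not show binding. In Atg14 the match lies after the start and is not shown. The stretches before the start that hold CACGTG are given 5′ to 3′ on the strand of each gene, with the matched letters in capitals.
Atg3, chr16:45158698-45158777, plus strand, last matched bases 89 and 66 bases before the start: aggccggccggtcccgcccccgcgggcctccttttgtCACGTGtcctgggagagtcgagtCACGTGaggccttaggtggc
Atg5, chr10:44268259-44268338, plus strand, 9 bases before the start: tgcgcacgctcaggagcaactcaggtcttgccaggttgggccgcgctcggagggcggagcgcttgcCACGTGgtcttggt
Atg7, chr6:114670927-114671006, plus strand, 127 bases before the start: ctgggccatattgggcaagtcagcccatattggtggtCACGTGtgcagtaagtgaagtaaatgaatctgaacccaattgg
Rubcn, chr16:32868412-32868491, minus strand, 83 bases before the start: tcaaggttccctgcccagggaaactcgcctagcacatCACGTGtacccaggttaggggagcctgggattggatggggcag

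The genes with the E-box had folds on both sides of 1. Their folds of ethanol over saline were 1.01 for Atg14, 1.07 for Rubcn, 0.922 for Atg3, 0.903 for Atg5 and 1.03 for Atg7. Among their 10 pairs 5 had a positive r over the 8 libraries, with a range from -0.54 (Rubcn with Atg5) to 0.60 (Atg14 with Atg3). The median was -0.0022, beside 0.14 over all 703 pairs of autophagy genes and -0.0025 over all pairs of tested genes. Whether TFEB acts on these genes was not tested.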

How the data were processed

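Gene expression was measured by RNA-seq in sorted 5xFAD microglia. Per the labels' protocols, a SMARTer kit (version 4) turned 500 pg of RNA into cDNA, of which 150 pg went into NexteraXT libraries, read in paired ends of 150 nt on a NovaSeq X. Per the submitters' processing notes, STAR 2.7.9a, featureCounts 2.0.1, Salmon 1.5.2, DESeq2 and the build GRCm39 were used. How they were combined, with which settings and gene models, was not given in the sources used here. The deposited values are 1 table of signal, namely counts that the authors divided by DESeq2 size factors, per the name of the table. Dividing by each library's smallest non-zero value gave whole reads within 1e-06 for 100% of non-zero values.

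Samples were grouped by title. The test was limma 3.58.1 (R 4.3.3, intensity trend, two-sided) on log2(value + 1) for 14428 genes with a mean of at least 10, with Benjamini-Hochberg adjustment over all of them at 0.05. Fold changes are on that scale, which understates changes of low genes. edgeR 4.0.16 (quasi-likelihood) and DESeq2 1.42.0 were run on recovered reads. The tests were tried on simulated counts and on simulated correlations, and the outcomes are not given here. Libraries carry no molecular identifiers. The intervals cover the spread between libraries only. The 38 genes and all lists were chosen with earlier results of these data known. Full values are given for 15 chosen genes and for the 4 genes with the smallest p in each direction, 20 in all. Rubcn and Wipi1 were added after their values were seen. Exon lengths came from GENCODE M21 (GRCm38), and 38 of 38 genes matched. An overlapping gene averaging 10 or more normalized counts exists for 7 of 38 genes (Rb1cc1, Rubcn, Vmp1, Atg7, Atg12, Atg16l1 and Map1lc3b), whose values are uncertain to that extent since strand is not marked, and near-identical copies could share reads.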

Additional observations from a re-analysis of the deposited data

Results flagged for a closer look

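Among 76 groups of 4 libraries (38 genes in each treatment), 4 had a library whose gap to the nearest other exceeded Dixon's 95% critical value, as a share of the group's range. Chance flags about 1 in 20 groups, so 4 of 76 is about the number that chance gives.

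Ethanol 3 was low for a pair of genes. Tax1bp1 had 2737 normalized counts in ethanol 3, against 3419 to 3516 in the other ethanol libraries, and Ambra1 had 815 there, against 1042 to 1056. In saline 1, Pik3r4 was high at 1169 normalized counts, against 942 to 968 in the other saline libraries. In saline 2, Atg4b was high at 1062, against 957 to 971.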

How the results depend on the processing

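Under 20 other settings (edgeR, DESeq2, pseudocounts of 0.5 and 5, no filter, a mean of at least 50, quantile and TMM normalization, sample number as a block, library name number, samples 1 and 2 against 3 and 4 as a term, array weights, and leaving out each library), 0 of 38 autophagy genes and 0 of all tested genes were called. Leaving out 1 library gave medians of the 38 log2 fold changes from -0.03 to 0.03. In all 20 settings 21 of 38 genes kept their sign. Of 440 values of the 20 genes named by rule under these and the 2 settings added after seeing the data, 14 had the other sign. Becn1 was 0.0061 under quantile normalization. Leaving out 1 library gave -0.067 to 0.038 for Becn1, -0.15 to 0.040 for Atg16l1, -0.070 to 0.15 for Pik3c3 and -0.0037 to 0.096 for Atg7. Within samples 1 and 2 alone, one of the added settings, Pik3c3 was -0.13. Within samples 3 and 4 alone, the other, Becn1 was 0.041, Atg7 -0.053 and Sqstm1 0.024. The causes were not tested.

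With the sample number as a replicate block, limma called 0 of 38 and 0 of 14428 genes, and 645 genes had an unadjusted p under 0.05, against 524 without it. Deviations of same-numbered libraries from their group means correlated at 0.0138 to 0.0796, and those of differently numbered libraries at -0.105 to 0.137. The main test used no block because the labels do not say what the sample number marks. These low correlations do not settle whether the samples were paired. Library names carry a further number, 163, 164 or 165, whose meaning the labels do not give and which both groups share. Ethanol 1 and saline 2, both 165, correlated at 0.137, and the other pairs across groups with a common name number at -0.0231 to 0.0796. With that number as a factor 3 of 38 genes had an unadjusted limma p under 0.05, and under quantile normalization 1, against 2 in the main test. The share over all tested genes under these settings was not computed, so the counts have no background beside them. The intervals of Optn and Wipi1 reach past 1.5-fold. Their variance within groups was 3.08 and 13.7 times the variance from counting reads, so the spread between libraries exceeded counting error in both.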
